A study of Mus musculus with 9 samples.

Results

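Mitochondrial ribosomal protein genes encode the protein shell of the ribosome that works inside mitochondria. They were taken here as every gene with a symbol that starts with Mrpl or Mrps and goes on with a number, where the letters l and s stand for the large and the small ribosomal subunit. The bead array held 132 probes for 76 such genes, 48 named for the large and 28 for the small subunit. Of these, 73 genes (46 large, 27 small) had a probe detected on at least 3 of the 9 arrays and were tested, out of 10800 genes tested in all. Mrps14, Mrpl19 and Mrpl32 had no such probe, and their probes were undetected on all 9 arrays. Mrpl41 and Mrps36, which fit the naming rule in RefSeq, were not analysed here.

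The groups were adult cardiomyocytes purified from the left ventricle of mice aged 2 months (CMa), neonatal cardiomyocytes purified from the heart of mice aged 1 day (CMp) and undifferentiated embryonic stem cells of the line labelled mES_TBV2 (mES), with 3 arrays in each. Cardiomyocytes are the muscle cells of the heart. No group was treated, and no strain or genotype is given in the labels. All mES arrays carry the label of a single line, and CMa and CMp differ in the heart region as well as in age. The labels speak of biological triplicates without naming animals or cultures, so p-values cover only the spread among these samples, which may be technical.

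All members are encoded in the nucleus, made in the cytosol and imported into mitochondria, where they assemble with ribosomal RNAs that are encoded in mitochondrial DNA. The mitochondrial ribosome translates the few proteins that mitochondrial DNA still encodes, all of them core subunits of the respiratory chain and of ATP synthase. Many members have a counterpart in bacterial ribosomes, and others are found only in mitochondria. Heart muscle is rich in mitochondria, and inherited defects of several members cause cardiomyopathy in humans.

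Levels are given as log2 intensities, corrected for background and quantile-normalized, which gives all arrays the same distribution of values. Differences are log2 differences between group means ± SE from limma, and a gene was called at an adjusted p under 0.05 over all 10800 genes. Median raw signals per array lay between 88.7 and 112.2, and 13781 to 17946 of 45281 probes were detected per array, with the fewest on the CMa arrays. Across the genes tested, arrays correlated within their group at 0.973 to 0.985 (CMa), 0.965 to 0.995 (CMp) and 0.988 to 0.995 (mES). The summed level of 10 cardiomyocyte markers was 202000 to 255000 on the CMa arrays and 208000 to 224000 on the CMp arrays, against 331 to 387 on the mES arrays. The summed level of 8 stem cell markers was 1140 to 1560 in CMa, 459 to 493 in CMp and 66300 to 73100 in mES. Nanog, Pou5f1, Sox2, Tdgf1 and Utf1 were undetected on every CMa and CMp array, and Zfp42 on every CMa array. Of the 8 markers, 1 was detected on all CMa arrays, 2 on all CMp arrays and all on every mES array. Esrrb, a marker of this list, was 1.92 ± 0.17 higher in CMa than in CMp (adjusted p = 6.23e-06, limma). Markers of other cell types differed between the groups too. The summed level of 7 fibroblast markers was 4760 to 6120 in CMa, 19500 to 25100 in CMp and 183 to 201 in mES, and that of 7 endothelial markers was 9770 to 13600 in CMa, 18700 to 32700 in CMp and 1230 to 1600 in mES. For 5 erythroid markers it was 8320 to 16600 in CMa, 91300 to 102000 in CMp and 110 to 127 in mES, and for 6 leukocyte markers 290 to 562 in CMa, 771 to 1240 in CMp and 123 to 134 in mES. The fibroblast marker Col1a2, the erythroid marker Slc4a1 and the leukocyte marker Adgre1 were undetected on all CMa arrays. Every tested marker of these 4 lists was detected on all CMp arrays. The tested markers are those that passed the detection filter, 7 of 8 fibroblast, 7 of 8 endothelial and 6 of 7 leukocyte markers with a probe. The part of these cells in the results below was not tested, and fewer cells of a type cannot be told apart from less RNA per cell.

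The median level of the 73 members was 11.14, 10.89 and 10.83 on the CMa arrays, 10.34, 10.22 and 10.34 on the CMp arrays and 10.38, 10.46 and 10.40 on the mES arrays. Under quantile normalization the CMa arrays thus lay above both other groups without overlap, and the CMp arrays lay just under the mES arrays. How far the comparisons with mES depend on this scaling is given with each of them. The lowest of the 3 group means was that of CMp in 45 members, that of mES in 27 and that of CMa in 1. CMa had the highest mean in 58 members and mES in 15. By limma's F-test 67 of 73 members differed among the groups, beside 87.9% of all genes tested. The 6 that did not pass were Mrpl20, Mrpl52, Mrps18c, Mrps22, Mrps26 and Mrps35, at adjusted p-values of 0.0677 to 0.707.

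**Figure D1:**
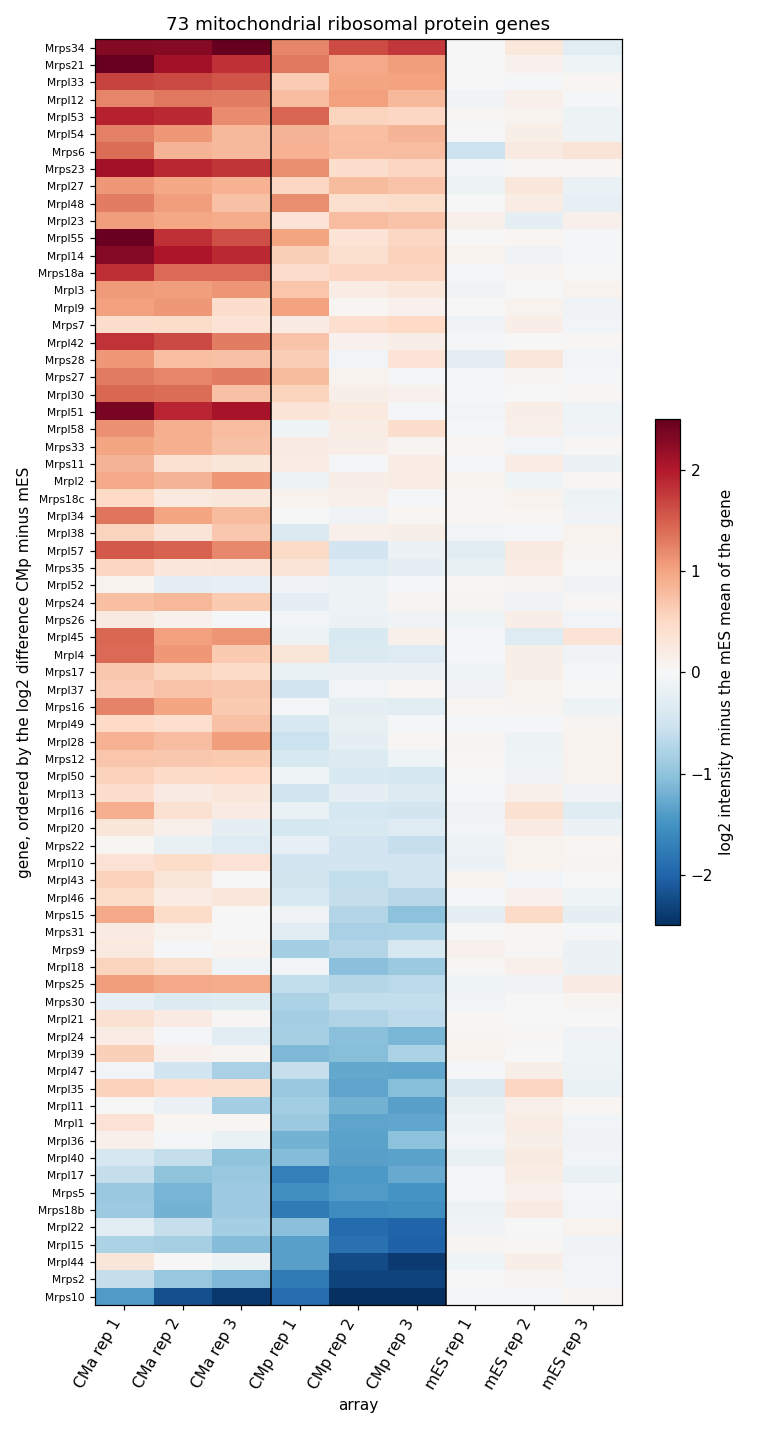
Levels of the 73 tested members on each of the 9 arrays, as log2 intensity minus the mES mean of the gene under quantile normalization, with genes ordered by the difference between CMp and mES. Red is above and blue below the mES mean. The CMp columns run from red at the top, Mrps34 at 1.54, to blue at the bottom, Mrps10 at -2.40, and the CMa mean is above the CMp mean in 72 of the 73 genes.

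The comparison of neonatal cardiomyocytes with stem cells asked which members differ between the heart cell at birth and the undifferentiated cell. Calls went in both directions. In CMp 15 of 73 members were called higher than in mES and 26 lower, and 32 did not pass the test (limma, adjusted p under 0.05). Over all genes tested, 35.4% were called higher and 38.8% lower. The median difference of the members was -0.15, beside -0.09 for all genes. At least 2-fold differences were called in 2 members that were higher and 15 that were lower, against 26.0% and 26.8% of all genes. The groups did not overlap in 19 members that were higher in CMp and 31 that were lower, beside 37.0% and 40.8% of all genes.

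The largest increase was that of Mrps34, a small subunit protein found only in mitochondria that in mice is needed for a stable small ribosomal RNA. It stood at 11.16, 11.57 and 11.71 on the CMp arrays, against 9.93, 10.21 and 9.67 on the mES arrays. All CMp values lay above all mES values, and the difference was 1.54 ± 0.20, or 2.91-fold (adjusted p = 3.85e-05, limma). Mrps21, a small subunit protein with a bacterial counterpart, stood at 11.09, 10.71 and 10.81 in CMp and at 9.78, 9.87 and 9.66 in mES, a difference of 1.10 ± 0.19 (adjusted p = 0.000377). Mrpl33 of the large subunit followed at 0.88 ± 0.15, Mrpl12 at 0.87 ± 0.15 and Mrpl53 at 0.84 ± 0.27 (adjusted p = 0.000343, 0.000239 and 0.0164). Mrpl12 is part of the flexible stalk to which translation factors bind, and it has also been described as a partner of the mitochondrial RNA polymerase. Its values were 12.28, 12.53 and 12.33 in CMp, against 11.43, 11.63 and 11.46 in mES.

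The decreases were larger. Mrps10, a small subunit protein with a bacterial counterpart, stood at 8.71, 8.06 and 7.89 on the CMp arrays, against 10.60, 10.58 and 10.68 on the mES arrays. The difference was -2.40 ± 0.28, or 5.28-fold lower in CMp (adjusted p = 1.35e-05, limma), and the groups were apart by more than their spread. The other kept probes of Mrps10 were lower in CMp by less, at -1.27 and -0.41. The tested probe was the brightest through its mES mean of 10.62, and in CMp its mean of 8.22 lay under theirs of 8.41 and 8.33. The size of this decrease thus depends on the probe. Mrps2, another small subunit protein shared with bacteria, was at 7.19, 6.63 and 6.63 in CMp and at 8.94, 9.02 and 8.89 in mES, a difference of -2.13 ± 0.20 (adjusted p = 2.56e-06). Mrpl44 is a large subunit protein with an RNase III-like domain, and its mutation causes infantile cardiomyopathy in humans. It was at 8.51, 7.64 and 7.48 in CMp and at 9.77, 10.04 and 9.80 in mES, a difference of -1.99 ± 0.25 (adjusted p = 2.94e-05). CMp replicate 1 was the highest array of its group, but all CMp arrays lay below all mES arrays. Mrpl15 and Mrpl22, both large subunit proteins shared with bacteria, differed by -1.75 ± 0.19 and -1.65 ± 0.25 (adjusted p = 8.55e-06 and 0.000125).

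How far these counts lean to lower values depended on the scaling of the arrays, whereas the decreases of most named members did not. When arrays were instead scaled to a common median, 1 member was called higher in CMp and 50 lower. The median of all genes then moved to -0.59 and that of the members to -0.89. With no normalization between arrays the split was 1 to 54, and with arrays scaled to a common median of kept probes, where all genes had a median of -0.13, it was 5 to 38. Under these 3 scalings the members' median minus that of all genes was -0.30. They differ only by a shift of all genes of an array, so this value is the same in them by construction. Under quantile normalization it was -0.06. Of the 26 decreases, 23 were called under all 20 alternatives tried, and of the 15 increases only that of Mrps34 was. The call of Mrpl53 was also lost without mES replicate 3 (adjusted p = 0.0533). Without normalization the differences of Mrpl12 and Mrpl53 were 0.00 and -0.13.

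Adult cardiomyocytes compared with stem cells showed the opposite balance under quantile normalization. In CMa 41 members were called higher than in mES and 7 lower, and 25 did not pass (limma), beside 36.8% of all genes called higher and 40.2% lower. The members' median difference was 0.52, or 1.43-fold, and that of all genes was -0.07. It was 0.40 to 0.72 with cyclic loess, with the authors' own normalization and with arrays scaled to a common median of kept probes, and turned to -0.19 with arrays scaled to a common median and to -0.45 without normalization. In those cases 14 members were called higher and 25 lower, and 10 higher and 37 lower. The median of all genes was then -0.79 and -1.05, and the members lay 0.59 above all genes. This distance is the same in both by construction, since they differ only by a shift of all genes of an array. It was 0.58 under quantile normalization. The groups did not overlap in 46 members that were higher in CMa and 9 that were lower, beside 38.3% and 41.8% of all genes.

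The members with the largest increases over mES were Mrps34, Mrps21, Mrpl51, Mrpl14 and Mrpl55, and each was called higher under all 20 alternatives. Of the 41 members called higher, only 10 were called so under all of them. Mrps34 reached 12.24, 12.22 and 12.55 on the CMa arrays, which is 2.40 ± 0.20 above mES, or 5.28-fold (adjusted p = 8.49e-07). Mrps21 reached 12.27, 11.86 and 11.60, or 2.14 ± 0.19 above mES (adjusted p = 1.62e-06). Both also lay above their CMp values without overlap. Mrpl51, a large subunit protein found only in mitochondria, stood at 8.16, 7.70 and 7.86 in CMa, against 5.73, 5.96 and 5.69 in mES, a difference of 2.11 ± 0.18 (adjusted p = 8.16e-07). Its CMp values of 6.12, 6.03 and 5.75 overlapped those of mES. Mrpl14 was 2.07 ± 0.16 and Mrpl55 1.96 ± 0.24 above mES (adjusted p = 4.07e-07 and 1.72e-05), and both are large subunit proteins shared with bacteria.

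The 7 members that stayed lower in CMa than in mES were Mrps10 (-2.01 ± 0.28), Mrps5 (-1.01 ± 0.15), Mrps18b (-0.99 ± 0.16), Mrpl15 (-0.91 ± 0.19), Mrps2 (-0.89 ± 0.20), Mrpl17 (-0.85 ± 0.18) and Mrpl40 (-0.67 ± 0.19), at adjusted p-values of 4.78e-05 to 0.00765 (limma). All 7 were called lower in CMa under each of the 20 alternatives, although another kept probe of Mrps10 was at 0.08. The same 7 genes stood at -2.40, -1.48, -1.62, -1.75, -2.13, -1.47 and -1.26 in CMp against mES, a comparison that shares the mES arrays. Mrps5, which like Mrps10, Mrps2, Mrpl15 and Mrpl17 has a bacterial counterpart, had 8.41, 8.18 and 8.45 on the CMa arrays, 7.82, 7.93 and 7.87 on the CMp arrays and 9.30, 9.45 and 9.31 on the mES arrays. None of its 3 groups overlapped another, and CMa lay between CMp and mES.

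**Figure D2:**
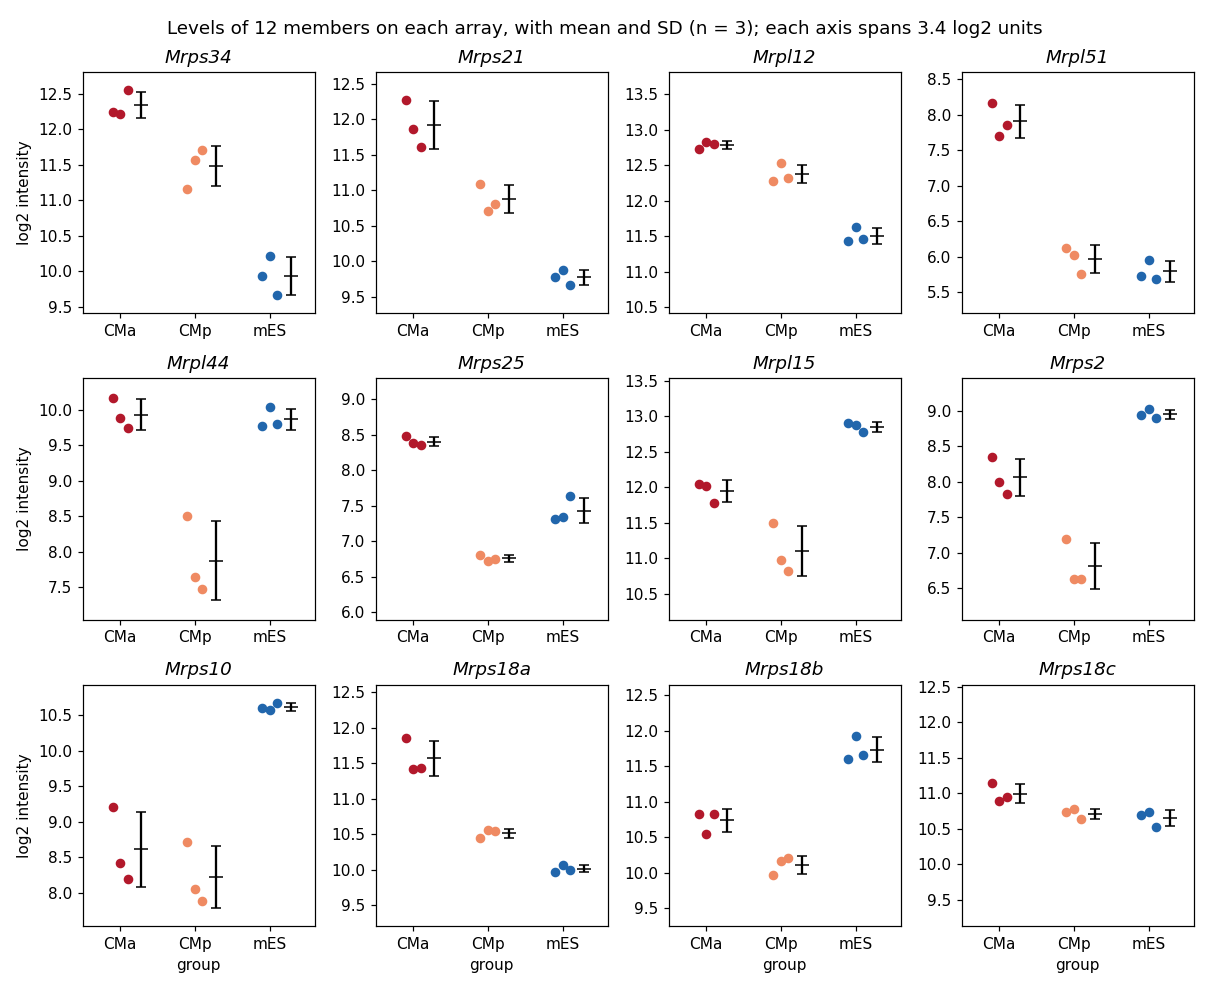
Log2 intensity of 12 members on each array of CMa, CMp and mES, with the mean and SD of the 3 arrays as a dash and bar, each panel spanning 3.4 log2 units on its own range. Mrpl44 has CMa and mES values between 9.74 and 10.17 and CMp values from 7.48 to 8.51, and Mrps18b is lower in both heart groups than in mES.

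The comparison of adult with neonatal cardiomyocytes asked which members differ between CMa and CMp. These groups also differ in heart region and in the markers of other cell types, so age cannot be told apart from either. The comparison had the most uniform outcome. In CMa 57 of 73 members were called higher than in CMp and none lower, while 26.4% of all genes were called higher and 25.9% lower (limma). At an unadjusted p under 0.05 the counts were 60 and 0. The members' median difference was 0.82, or 1.77-fold, beside 0.01 for all genes, and 72 of 73 members had a difference above 0. The remaining one, named after its value was seen, was Mrpl52, a large subunit protein found only in mitochondria, at -0.05 ± 0.15 (95% interval -0.38 to 0.28). The groups did not overlap in 61 members, all higher in CMa, beside 28.4% of all genes higher and 27.3% lower. At least 2-fold increases were called in 22 members, against 13.9% of all genes.

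The direction held under every scaling. The counts were 53 and 0 with arrays scaled to a common median, 48 and 0 without normalization, 70 and 0 with arrays scaled to a common median of kept probes and 58 and 0 in the authors' matrix, with members' medians between 0.71 and 1.27. All genes had a median of -0.20, -0.29, 0.26 and 0.00 in these fits. The members lay 0.71 above all genes in the authors' matrix and 1.01 above them in the other fits, where the distance is the same by construction. Of the 57 increases, 42 were called under all 20 alternatives. The calls rested on 1 probe a gene, but in this comparison the other probes moved likewise. Of 40 further kept probes of 27 members, 39 were higher in CMa than in CMp, with a median of 0.96, the exception being a probe of Mrpl38 at -0.28. Against mES these further probes had a median of 0.16 in CMa (22 above 0, 18 below) and of -0.80 in CMp (8 above, 32 below). The tested probes of all 73 members had medians of 0.52 and -0.15 there. With the mean of all kept probes the members' medians were 0.56 and -0.15.

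The largest increase was that of Mrpl44, at 10.17, 9.88 and 9.74 on the CMa arrays, against 8.51, 7.64 and 7.48 on the CMp arrays. The groups were far apart, by 2.06 ± 0.25 or 4.16-fold (adjusted p = 5.99e-05, limma). Mrpl51 was 1.94 ± 0.18 higher (adjusted p = 7.1e-06). Mrps25, a small subunit protein found only in mitochondria, stood at 8.48, 8.38 and 8.35 in CMa, against 6.81, 6.72 and 6.75 in CMp, with little spread in either group and a difference of 1.64 ± 0.15 (adjusted p = 6.9e-06). Mrpl35 at 1.57 ± 0.22 and Mrpl14 at 1.53 ± 0.16 followed (adjusted p = 0.00017 and 1.76e-05), both large subunit proteins with bacterial counterparts.

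The 16 members that did not pass lay between -0.05 and 0.60. Mrps7, a small subunit protein that binds the small ribosomal RNA, was at 11.32, 11.33 and 11.22 in CMa and 11.09, 11.30 and 11.38 in CMp. These values overlapped, and the difference of 0.04 ± 0.15 had a 95% interval of -0.30 to 0.37. The other kept probe of Mrps7 was 1.03 higher in CMa, and the gene was called higher with the mean of all kept probes (0.53, adjusted p = 0.0104) and with arrays scaled to a common median of kept probes (0.57, adjusted p = 0.0169). For Mrps6 the interval ran from -0.33 to 0.75 and for Mrps22 from -0.10 to 0.63. Mrpl47 and Mrpl20, at 0.60 ± 0.24 and 0.45 ± 0.18, were named after their values were seen and missed the threshold narrowly (adjusted p = 0.0606 and 0.0566).

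**Figure D3:**
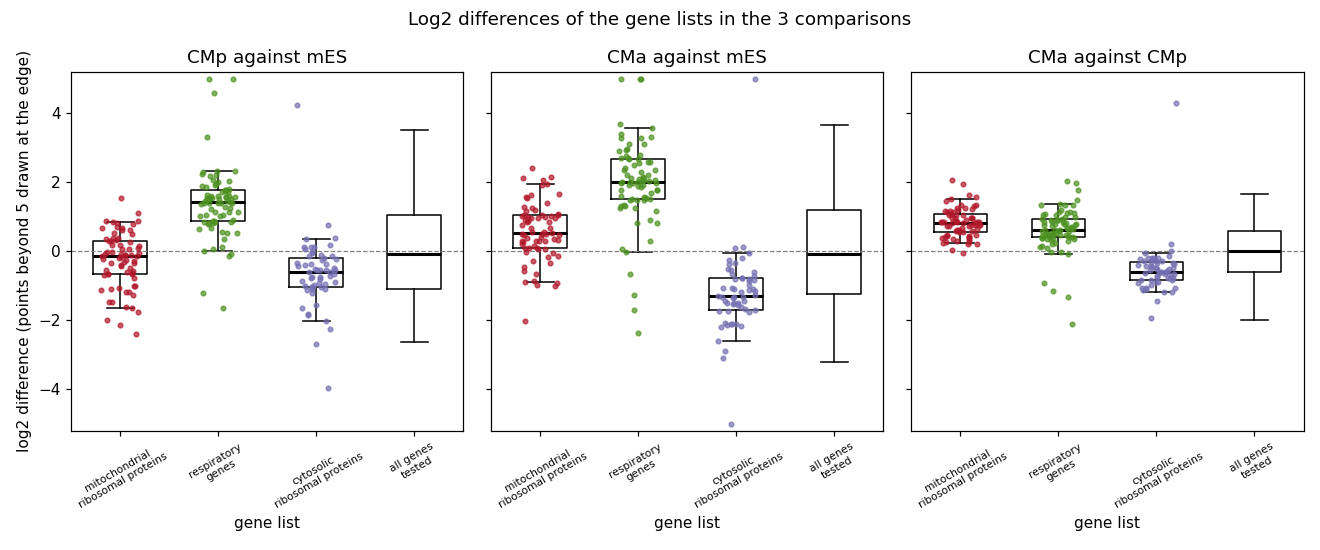
Log2 differences of the 73 mitochondrial ribosomal protein genes, 77 respiratory genes, 57 cytosolic ribosomal protein genes and all 10800 genes tested in the 3 comparisons under quantile normalization. Points are genes, boxes span the quartiles with the median as a line, and whiskers reach the 5th and 95th percentiles. In CMa against CMp the members centre on 0.82, the respiratory genes on 0.63 and the cytosolic ribosomal proteins on -0.59.

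The 3 comparisons share arrays, so calls in more than 1 of them are not counted together here, and the levels of single members are set side by side. The CMa values of Mrpl44 overlapped those of mES, with a difference of 0.07 ± 0.25 under quantile normalization that turned to -0.81 with arrays scaled to a common median. Mrps25 had the lowest values in CMp and the highest in CMa. It was 0.97 ± 0.15 above mES in CMa (adjusted p = 0.000114), a difference of 0.01 with arrays scaled to a common median and of -0.25 without normalization. Mrps2, at 8.35, 8.0 and 7.83 in CMa, lay between its CMp and mES values without overlap, 1.24 ± 0.20 above CMp and -0.89 ± 0.20 from mES (adjusted p = 0.000384 and 0.00175). Mrpl11, a large subunit protein of the stalk base, had 10.10, 9.95 and 9.26 in CMa, 9.24, 8.91 and 8.74 in CMp and 9.92, 10.22 and 10.15 in mES. The difference was -1.13 ± 0.23 between CMp and mES and 0.81 ± 0.23 between CMa and CMp (adjusted p = 0.001 and 0.0128), and the second call was lost when CMp replicate 3, CMa replicate 1 or CMa replicate 2 was left out (0.70, 0.63 and 0.71, adjusted p = 0.0525, 0.0526 and 0.0514). It was also lost with arrays scaled to a common median (0.64, adjusted p = 0.0578) and without normalization (0.55, adjusted p = 0.105).

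In other members CMa was called higher than both CMp and mES under quantile normalization, and CMp against mES did not pass. Mrps12, which sits at the decoding centre, was at 11.93, 11.91 and 11.89 in CMa, 10.83, 10.90 and 11.13 in CMp and 11.26, 11.13 and 11.33 in mES. CMa lay above both other groups without overlap, by 0.96 ± 0.15 over CMp and 0.67 ± 0.15 over mES (adjusted p = 0.000278 and 0.00148), and the difference between CMp and mES of -0.29 ± 0.15 did not pass (adjusted p = 0.0987). That difference was called lower under 7 alternatives, among them no background correction (-0.28, adjusted p = 0.0255), the authors' matrix (-0.28, adjusted p = 0.0151) and arrays scaled to a common median (-1.03, adjusted p = 4.87e-05). Against mES the CMa difference was 0.04 with arrays scaled to a common median and -0.22 without normalization. The other kept probe of Mrps12 went the other way in CMp against mES, at 0.29 under quantile normalization. In CMa against mES it was at 1.22. Mrps16, mutated in a fatal neonatal lactic acidosis in humans, rose by 1.14 ± 0.18 over CMp and Mrpl28 likewise by 1.14 ± 0.17 (adjusted p = 0.000297 and 0.000279). Mrpl3, mutated in mitochondrial cardiomyopathy in humans, was 0.68 ± 0.17 higher in CMa than in CMp (adjusted p = 0.00526). In the authors' matrix, whose values for its probe differ from the scanner's, this call was lost (1.05, adjusted p = 0.12). The call of Mrpl3 in CMa over mES was lost there too (0.69, adjusted p = 0.246). With arrays scaled to a common median the calls of CMa over mES were lost for Mrps16 (0.16, adjusted p = 0.48), Mrpl28 (0.31, adjusted p = 0.0785) and Mrpl3 (0.35, adjusted p = 0.101). Mrps16 and Mrpl28 were then called lower in CMp than in mES (-0.96 and -0.95, adjusted p = 0.0011 and 0.000139).

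**Figure D4:**
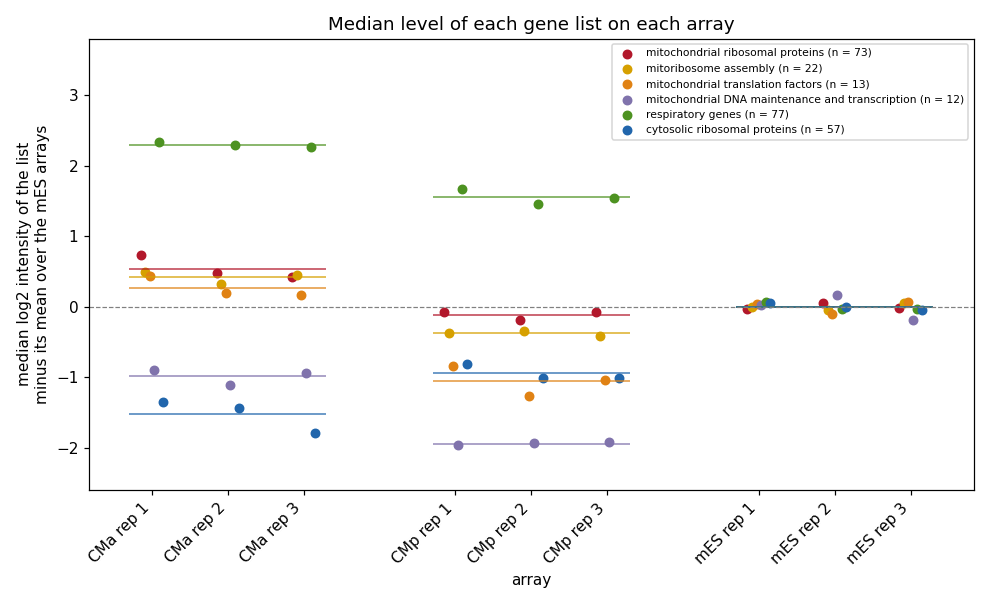
Median log2 intensity of 6 gene lists on each array, minus the mean of that median over the mES arrays, under quantile normalization. Lines are group means. The members lie near 0 on the CMp arrays and above it on the CMa arrays (their median difference from mES turns to -0.19 with arrays scaled to a common median), the respiratory genes are above 0 in both heart groups, and the genes of mitochondrial DNA maintenance and transcription are below 0 in both.

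Both subunits held calls of either kind against mES and only higher calls in CMa against CMp. Of 46 large subunit genes, 9 were higher and 17 lower in CMp than in mES, 26 higher and 3 lower in CMa than in mES, and 38 higher and 0 lower in CMa than in CMp. Of 27 small subunit genes the counts were 6 and 9, 15 and 4, and 19 and 0. Over all genes tested, 35.4% were called higher and 38.8% lower in CMp against mES, and 36.8% and 40.2% in CMa against mES. In CMa against CMp the shares were 26.4% and 25.9%. These shares also stand beside the counts of the other gene lists below. Medians between CMa and CMp were 0.86 for the large and 0.72 for the small subunit, and a difference between the subunits was not tested. Members with a bacterial counterpart (43 genes) and members without a direct one (30 genes, Mrps18a and Mrps18b among them) had medians of 0.85 and 0.82 in CMa against CMp, with 33 and 24 called higher and none lower in either. The symbols do not always tell the subunit, since in mammals the products of Mrps18a and Mrps30 are found in the large subunit.

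The Mrps18 paralogs had different profiles. These 3 genes descend from a single bacterial ribosomal protein gene, and their products hold separate positions in the mitochondrial ribosome. Mrps18a was at 11.85, 11.42 and 11.43 in CMa, 10.44, 10.55 and 10.54 in CMp and 9.97, 10.07 and 10.00 in mES, so that no group overlapped another. It was 1.55 ± 0.16 higher in CMa than in mES (adjusted p = 4.59e-06, limma). In CMp it was 0.50 ± 0.16 higher than in mES (adjusted p = 0.0154), a direction that turned to -0.32 with arrays scaled to a common median. Mrps18b was at 10.83, 10.55 and 10.83 in CMa, 9.97, 10.16 and 10.20 in CMp and 11.60, 11.93 and 11.66 in mES. It differed from mES by -0.99 in CMa and by -1.62 in CMp, with the sign the same under all 20 alternatives. Mrps18c, the paralog that keeps the place of the bacterial protein, was at 11.14, 10.89 and 10.94 in CMa, 10.73, 10.77 and 10.63 in CMp and 10.69, 10.73 and 10.52 in mES. CMp and mES overlapped, and none of its comparisons passed the test (adjusted p = 0.0526 to 0.703). Its comparison of CMa with mES was unstable, called higher without background correction (0.33, adjusted p = 0.011) and in the authors' matrix (0.32, adjusted p = 0.00664) and lower with arrays scaled to a common median (-0.43, adjusted p = 0.0312). CMa against CMp was called higher under 4 alternatives, at 0.26 to 0.76.

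Where a member had several kept probes, their differences could vary. Of 27 such members, 6 had probes that pointed in opposite directions at least 2-fold apart. For Mrpl3 this was so in CMp against mES, at -0.67 and 0.39. In CMa against mES it held for Mrpl10 (-0.69 to 0.39), Mrpl38 (-0.55 to 0.52), Mrpl49 (-1.41 to 0.55), Mrps10 (-2.01 to 0.08) and Mrps25 (-0.10 to 0.97). The directions of these 5 genes between CMa and mES are therefore uncertain, including those of Mrps10, whose other kept probes were at -0.67 and 0.08, and of Mrps25. All 7 kept probes of Mrpl15 were lower in CMp than in mES, from -4.06 to -0.69, as were the 3 of Mrps18b, from -2.69 to -1.62, and the 3 of Mrps10, from -2.40 to -0.41. Mrpl51 had 3 probes between 0.92 and 2.11 in CMa against mES.

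The protein partners of the family, which carry other symbols, had calls of the same kinds. Of the 4 that were tested, Ptcd3, an RNA-binding small subunit protein, was at 9.12, 9.06 and 9.24 in CMa, 7.72, 7.43 and 7.69 in CMp and 9.17, 9.20 and 8.84 in mES. CMp was apart from both other groups, by -1.46 ± 0.16 from mES (adjusted p = 1.08e-05), and CMa was 1.53 ± 0.16 above CMp (adjusted p = 2.13e-05). Dap3, a GTP-binding small subunit protein, and Chchd1 rose in CMa over CMp by 0.55 ± 0.15 and 0.62 ± 0.14 (adjusted p = 0.0118 and 0.00395), and Chchd1 was also 0.63 ± 0.14 above mES, while Gadd45gip1 passed no test.

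Genes that build the mitochondrial ribosome were mostly higher in CMa than in CMp. Of 22 assembly genes tested, 3 were higher and 13 lower in CMp than in mES, 9 higher and 6 lower in CMa than in mES, and 16 higher and none lower in CMa than in CMp (18 and 0 at an unadjusted p under 0.05). Their medians were -0.73, 0.03 and 0.95, and the one near zero turned to -0.61 with arrays scaled to a common median. Tfb1m, the methyltransferase that modifies the small ribosomal RNA, had 7.48, 7.22 and 6.74 in CMa, 5.54, 5.26 and 5.61 in CMp and 8.36, 8.47 and 8.36 in mES. It differed by -2.93 ± 0.20 between CMp and mES and rose by 1.68 ± 0.20 in CMa over CMp (adjusted p = 2.09e-07 and 4.79e-05). Rpusd4, a pseudouridine synthase, differed by -1.95 ± 0.21 in CMp against mES (adjusted p = 9.52e-06). Gtpbp10, a GTPase of large subunit assembly, was at 6.26, 4.56 and 4.53 in CMp and at 8.82, 8.61 and 8.83 in mES, and was called lower (adjusted p = 2.48e-05). It was detected on 1 of the 3 CMp arrays, so the size of that difference is not fixed. Nsun4, which methylates ribosomal RNA together with Mterf4, went the other way, 1.12 ± 0.17 higher in CMp and 1.76 ± 0.17 higher in CMa than in mES (adjusted p = 9.7e-05 and 2.17e-06), while Mterf4, named after its values were seen, was lower than mES in CMp, at -1.80 ± 0.18, and in CMa, at -0.74 ± 0.18 (adjusted p = 4.35e-06 and 0.00293).

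The translation factors that drive this ribosome numbered 13. None was called higher and 7 were called lower in CMp than in mES, and 10 were higher and none lower in CMa than in CMp (limma). At an unadjusted p under 0.05 the counts were 1 and 7 in the first comparison and 11 and 1 in the second. Medians were -0.66 in CMp against mES and 1.28 in CMa against CMp. Against mES, CMa had 6 factors higher and 2 lower with a median of 0.62, which turned to -0.35 with arrays scaled to a common median. Mtrf1, a release factor family member, was at 8.26, 8.19 and 7.96 in CMa, 6.41, 6.12 and 5.92 in CMp and 7.96, 8.19 and 7.85 in mES. It differed by -1.85 ± 0.18 between CMp and mES and rose by 1.98 ± 0.18 in CMa over CMp (adjusted p = 3.24e-06 and 6.27e-06), and CMa and mES overlapped. Pdf, the peptide deformylase that trims new mitochondrial proteins, was 1.81 ± 0.25 higher in CMa than in CMp (adjusted p = 0.000137).

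Nuclear-encoded respiratory genes make subunits of the respiratory chain and of ATP synthase, many of which join those translated by the mitochondrial ribosome. Of 77 tested, 66 were higher and 2 lower in CMp than in mES, with a median of 1.42, against 15 and 26 of the 73 members, with a median of -0.15. In CMa against mES 70 were higher and 4 lower (median 2.02), and in CMa against CMp 53 and 4 (median 0.63). Their median level was 13.82, 13.77 and 13.74 on the CMa arrays, 13.15, 12.93 and 13.02 on the CMp arrays and 11.54, 11.45 and 11.45 on the mES arrays. Their median in CMp against mES stayed above 0 under all scalings, at 0.78 with arrays scaled to a common median, where that of the members was -0.89. Cox6a2 and Cox8b, muscle forms of cytochrome oxidase subunits, averaged 14.74 and 13.68 in CMp and were undetected on all mES arrays, where they averaged 4.40 and 4.27. Set against the lowest detected signal of each mES array, Cox6a2 was at least 868-fold and Cox8b at least 415-fold higher in CMp (adjusted p = 8.83e-12 and 9.62e-12, limma). Cox7a1, another muscle form, was detected on all arrays and was 4.59 ± 0.19 higher in CMp than in mES (adjusted p = 4.32e-09). A test of the difference between the lists was not made.

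Genes for proteins of the cytosolic ribosome were mostly lower in adult cells than in stem cells. Of 57 such genes 36 were lower in CMp than in mES and 50 lower in CMa than in mES. In CMa against CMp 33 were lower, with a median of -0.59. With arrays scaled to a common median of kept probes that median became -0.04, and 8 were lower and 2 higher. A single gene, Rpl3l, a muscle form of a large subunit protein, was called higher in all 3 comparisons, by 4.25 ± 0.20, 8.54 ± 0.20 and 4.29 ± 0.20 (adjusted p = 1.1e-08, 6.17e-11 and 6.56e-08).

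**Figure D5:**
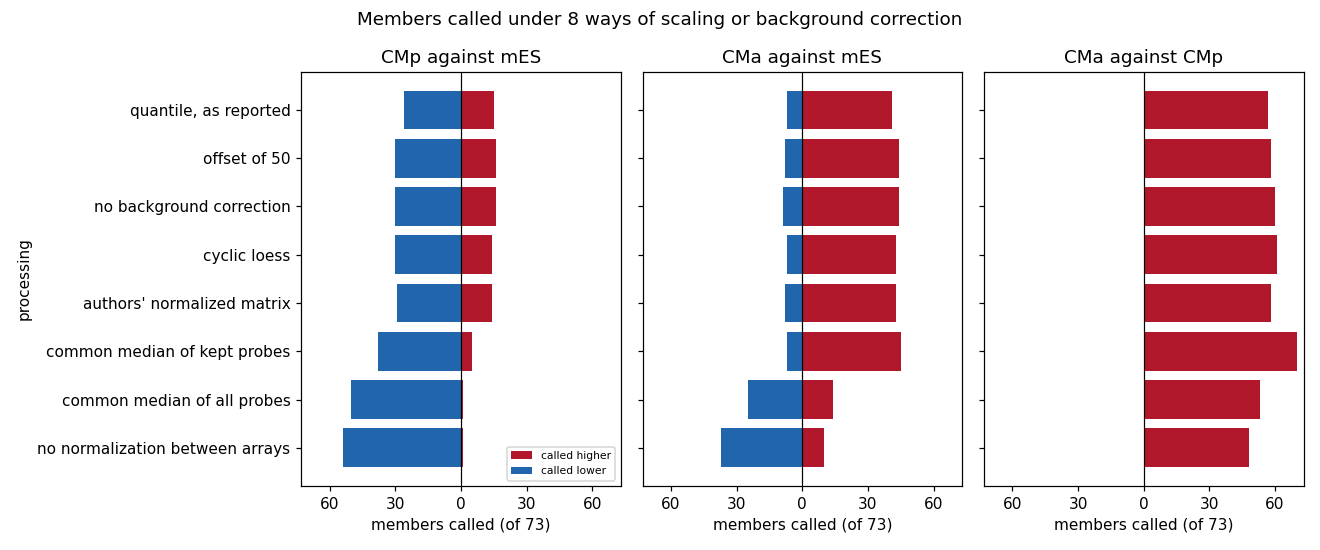
Number of the 73 members called higher (right) and lower (left) in the 3 comparisons under 8 ways of background correction and scaling. In CMa against CMp the bars point to higher in CMa under all 8, from 48 to 70 members. In the comparisons with mES scaling all probes to a common median, or no normalization, shifts the calls to lower, to 50 and 54 members in CMp and to 25 and 37 in CMa.

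The start regions of the members were searched for short motifs. The matches were not counted by the calls in CMa against CMp. RefSeq promoters (GRCm38.p6, 250 bases before and 50 after each annotated start) were found for 65 of the 73 members, 71 promoters in all. The letters CCGGAAG, a core that ETS factors bind, were present on either strand in 26 member promoters (36.6%) and in 8.86% of all 32851 promoters. The letters GCGCNTGCG, part of the site that the mitochondrial regulator NRF1 binds, were in 17 (23.9%), against 6.31% of all. AAGATGGCG, bound by YY1, was in 8 (11.3%), against 1.40%. CACGTG, an E-box, was in 7 (9.86%, against 7.15%), and TATAAA in 5 (7.04%, against 13.6%). The E-box letters were in only 5 of the 65 members, since Mrpl2 counts with 3 overlapping promoters. The letters TCAAGGTCA, bound by oestrogen-related receptors, were in none of the 71 and in 0.423% of all. No member promoter had overlapping matches of different motifs, and the base composition of the promoters was not compared. The shares of all promoters were not limited to genes tested here, while the member promoters were. The ETS letters were in 7 of 25 members lower in CMp than in mES, 7 of 13 higher and 12 of 27 not called. The NRF1 letters were in 8 of the 25 lower, 4 of the 13 higher and 5 of the 27 not called.

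Shown are the 120 bases before the start of 6 described members, chosen because they carry a match there, on the strand of the gene, with the matching letters in capitals. Mrps10, Mrps2, Mrps25 and Mrpl55, which also have large differences, held none of the 6 motifs in their promoters. Mrpl51 (chr6:125192080-125192199, plus strand), Mrpl22 (chr11:58171544-58171663, plus strand) and Mrps18a (chr17:46110884-46111003, plus strand) carry the ETS letters, which begin 90, 53 and 26 bases before the start. Mrpl12 (chr11:120484517-120484636, plus strand), Mrpl44 (chr1:79775898-79776017, plus strand) and Mrps21 (chr3:95871515-95871634, minus strand) carry the NRF1 letters, which begin 81, 34 and 91 bases before it, and those of Mrpl22 begin 33 bases before its start.
Mrpl51: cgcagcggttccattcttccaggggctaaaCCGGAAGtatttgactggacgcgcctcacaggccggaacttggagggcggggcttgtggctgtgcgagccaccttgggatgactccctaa
Mrpl22: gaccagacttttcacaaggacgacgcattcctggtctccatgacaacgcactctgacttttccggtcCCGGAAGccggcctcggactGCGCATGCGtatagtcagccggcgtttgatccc
Mrps18a: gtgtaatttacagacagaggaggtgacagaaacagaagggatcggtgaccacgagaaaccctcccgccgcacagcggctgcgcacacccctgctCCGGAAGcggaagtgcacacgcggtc
Mrpl12: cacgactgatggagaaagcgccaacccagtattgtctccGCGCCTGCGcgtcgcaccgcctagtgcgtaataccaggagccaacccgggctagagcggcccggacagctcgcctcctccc
Mrpl44: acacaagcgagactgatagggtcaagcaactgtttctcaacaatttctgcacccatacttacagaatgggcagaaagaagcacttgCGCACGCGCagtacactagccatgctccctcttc
Mrps21: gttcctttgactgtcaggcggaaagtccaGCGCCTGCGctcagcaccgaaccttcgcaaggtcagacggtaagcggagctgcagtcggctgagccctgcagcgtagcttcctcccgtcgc

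Among the 6 genes, Mrpl44 and Mrpl22 were lower in CMp than in mES, Mrps21, Mrpl12 and Mrps18a were higher, and Mrpl51 did not pass that test. All 6 were called higher in CMa than in CMp. That call of Mrpl12, at 0.41 ± 0.15 (adjusted p = 0.0362, limma), was lost in 7 of the 9 fits that left out an array, all but those without mES replicate 2 and without CMp replicate 2. A match of letters is a description of the sequence, and binding was not measured.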

How the data were processed

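Total RNA of 9 samples was labelled with biotin and hybridised to Illumina mouse bead arrays. The deposited intensities are mean bead signals per probe and array on a linear scale, not normalized between arrays, per the file headers. Beside each intensity the authors deposited the probe's detection p-value, named so in the header. A deposited matrix holds log2 values that the authors normalized. The submitters' processing notes name lumi, with version and settings not given in the sources used here. The matrix was used as an alternative only, since 3775 of its entries differed by more than 0.1 from the scanner values of their probe, among them those of 3 tested members, Mrpl15, Mrpl3 and Mrps33.

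Intensities were background-corrected with limma's nec from the detection p-values with an offset of 16, log2-transformed and quantile-normalized. A probe was kept where its detection p was under 0.01 on 3 or more of the 9 arrays (19707 of 45281, 16962 of them with a single gene symbol), and the brightest probe over all arrays stood for its gene. Of all probes, 34885 had a single symbol in the platform annotation, 18 had several and 10378 had none. Group means were fitted to 10800 genes with lmFit and eBayes (limma 3.58.1, R 4.3.3), with Benjamini-Hochberg adjustment over all genes and a threshold of 0.05. The number of arrays, 3 a group, limits the precision.

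Members and gene lists were chosen with earlier results of these data known. Genes named are the 5 members with the largest increases and decreases per comparison among called members without overlap, members called against the majority, members with no kept probe, those with probes at least 2-fold apart in opposite directions, fixed anchor members, partners with other symbols, and up to 3 called genes of each other list. Genes outside this rule were chosen after their values were seen. Replicate numbers were checked for pairing by the correlation of deviations from the group means, which ran from -0.04 to 0.09 in CMp with mES, from -0.07 to 0.15 in CMa with mES and from -0.08 to 0.39 in CMa with CMp, and the numbers were not taken to pair the samples. Alternatives were another offset or no background correction, other scalings, other detection filters, the mean of all kept probes, a replicate block and leaving out each array. The NRF1 letters were shortened by a base after the matches of the longer form had been seen, which was found in fewer promoters of members and of all genes.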

Additional observations from a re-analysis of the deposited data

How the results depend on the processing

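In CMa against CMp no member was called lower under any of the 20 alternatives, and the members' median was 0.72 without background correction, 0.93 with cyclic loess, 0.71 in the authors' matrix and 1.27 with arrays scaled to a common median of kept probes. The comparisons with mES depended on scaling. With arrays scaled to a common median, CMp had 1 member higher and 50 lower (median -0.89) and CMa 14 and 25 (median -0.19). Without normalization CMp had 1 and 54 (median -1.06) and CMa 10 and 37 (median -0.45). With a common median of kept probes CMp had 5 higher (median -0.43) and CMa a median of 0.72. The absence of normalization and the common median of kept probes were chosen after seeing the data. Cyclic loess gave a median of -0.26 in CMp, and the authors' matrix 0.40 in CMa. The cause was not tested. Leaving out each array gave 11 to 15 higher and 23 to 28 lower in CMp against mES (median -0.18 to -0.14), 37 to 43 and 7 to 9 in CMa against mES (median 0.50 to 0.65), 48 to 58 and 0 in CMa against CMp (median 0.77 to 0.85), and 61 to 69 by the F-test. With a replicate block 14 members were higher and 27 lower in CMp against mES, 42 and 8 in CMa against mES, and 56 and 0 in CMa against CMp. Of 99 single comparisons of named members, the block added 1 call and lost 2.

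Single members turned with scaling. With arrays scaled to a common median, CMa minus mES was -0.31 for Mrpl10, -0.15 for Mrpl38, -0.81 for Mrpl44, -0.30 for Mrpl49, -0.43 for Mrps18c and -0.30 for Mrps7, and CMp minus mES was -0.27 for Mrpl14, -0.11 for Mrpl55, -0.32 for Mrps18a, -0.73 for Mrps18c, -0.01 for Mrps6 and -0.41 for Mrps7. Without normalization, CMa minus mES was -0.57 for Mrpl10, -0.76 for Mrpl35, -0.40 for Mrpl38, -1.07 for Mrpl44, -0.56 for Mrpl49, -0.22 for Mrps12, -0.10 for Mrps16, -0.68 for Mrps18c, -0.25 for Mrps25, -0.08 for Mrps6 and -0.55 for Mrps7, and CMp minus mES was 0.00 for Mrpl12, -0.44 for Mrpl14, -0.57 for Mrpl3, -0.13 for Mrpl53, -0.28 for Mrpl55, -0.49 for Mrps18a, -0.90 for Mrps18c, -0.18 for Mrps6 and -0.58 for Mrps7. With the mean of all kept probes, CMa minus mES was -0.15 for Mrpl10, -0.01 for Mrpl38 and -0.42 for Mrpl49. In the authors' matrix Mrpl15, a probe whose values differ from the scanner's, was 0.00 in CMa minus CMp. The calls of Mrpl3 in CMa against CMp (1.05) and in CMa against mES (0.69) were lost there. Calls lost in single leave-one-out fits were among those of Mrpl10, Mrpl11, Mrpl12, Mrpl17, Mrpl38, Mrpl40, Mrpl53, Mrpl55, Mrps22, Mrps30, Mrps5 and Mrps7. A chip or slide block could not be run, because the headers used here name none.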

Other observations

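Genes that charge mitochondrial transfer RNAs were measured on the same arrays. Of 13 mitochondrial aminoacyl-tRNA synthetases tested, 3 were called higher and 7 lower in CMp than in mES (median -0.46), and 9 higher and 1 lower in CMa than in CMp (median 0.75, limma). In CMa against mES 6 were higher and 4 lower, with a median of 0.17 that turned to -0.61 with arrays scaled to a common median. Lars2, which charges leucine, stood at 8.79, 9.05 and 9.32 on the CMa arrays, 8.50, 8.38 and 8.03 on the CMp arrays and 4.94, 4.81 and 4.67 on the mES arrays. It was called higher in CMp and in CMa than in mES (adjusted p = 3.43e-08 and 5.21e-09). It was detected on 1 of the 3 mES arrays, so the sizes of these differences are not fixed. Rars2, which charges arginine, differed by -2.05 ± 0.20 in CMp against mES (adjusted p = 3.02e-06). Cars2, for cysteine, was 1.74 ± 0.17 higher in CMa than in CMp (adjusted p = 9.48e-06), and Ears2, for glutamate, differed by -0.75 ± 0.14 (adjusted p = 0.00119).

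Of 12 genes of mitochondrial DNA maintenance and transcription tested, none was called higher and 10 lower in CMp than in mES (median -1.16, limma), with the same counts at an unadjusted p under 0.05. In CMa against mES 1 was higher and 7 lower (median -0.72), and in CMa against CMp 9 were higher and none lower (median 1.11), or 10 and 0 unadjusted. With arrays scaled to a common median these medians were -1.76, -1.68 and 0.87. Tefm, the elongation factor of mitochondrial transcription, stood at 9.66, 9.51 and 9.58 in CMa, 7.97, 7.15 and 6.93 in CMp and 9.24, 9.41 and 9.18 in mES. CMp lay below both other groups, by -1.93 ± 0.24 against mES, and CMa was 2.24 ± 0.24 above CMp (adjusted p = 2.5e-05 and 2.22e-05). Tfam, which packages mitochondrial DNA and starts its transcription, differed by -2.08 ± 0.32 in CMp against mES and by 1.13 ± 0.32 in CMa against CMp (adjusted p = 0.000125 and 0.012). Tfb2m, a transcription initiation factor, was 1.58 ± 0.23 higher in CMa than in CMp (adjusted p = 0.000192).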
